A study of Mus musculus with 10 samples.

Results

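Amino acid transporter genes were examined in mouse fibroblasts that had been cultured with interleukin-13-deficient group 2 innate lymphoid cells (ILC2s), with wild-type ILC2s, or alone. The set held every gene of the count table whose mouse symbol falls in the carrier families Slc1a, Slc3a, Slc6a, Slc7a, Slc36a, Slc38a or Slc43a, with 1 gene of the Slc7a family left out. This gave 44 of the 22731 genes in the table. The annotation holds 62 such symbols, and those with no row in the table are not analysed here. Of the 44 genes, 37 passed the filter on low counts and were tested together with the rest of 16344 genes, and the other 7 did not pass it.

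The series title places the fibroblasts in the pancreas, in a study of how ILC2s act on fibroblast progenitors marked by Pi16. ILC2s are lymphocytes of tissues that lack antigen receptors and make type 2 cytokines such as interleukin-13. The fibroblasts, of the genotype C57B6 in every group, were sorted as live Pdpn+ Pdgfra+ cells lacking CD45, CD31 and Epcam, and the ILC2s as KLRG1+ lineage-negative cells. RNA of fibroblasts sorted again after coculture was sequenced in bulk. The 3 groups were fibroblasts with IL13KO ILC2s (IL13KO coculture, n = 3 libraries), with WT ILC2s (WT coculture, n = 3) and without ILC2s (monoculture, n = 4). The knockout allele, the culture time and the ratio of cells are not given in the sources used here. No label ties a library to an animal or a culture, so p-values measure the spread between libraries, which may be technical. The WT columns of the count table are numbered 1, 3 and 4 and the sample titles 1 to 3, so WT libraries go by the column numbers.

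Total counts lay between 17277432 and 17661229 with IL13KO ILC2s, between 18801744 and 22087459 with WT ILC2s and between 10710410 and 14366199 alone. A gene with 3 reads had 0.135 to 0.277 CPM (a gene's counts relative to the library's total, scaled to the same total in every library), the floor below which no level is read. Il13 had no read in any IL13KO coculture or monoculture, and 30, 120 and 121 reads with WT ILC2s. All 10 fibroblast markers examined had reads in every group. Their summed level differed between the groups, at 22270 to 27480 CPM with IL13KO ILC2s, 11830 to 16170 CPM with WT ILC2s and 7730 to 10600 CPM alone. The design text gives a CD45+ gate for the sort after coculture, although the starting fibroblasts lacked CD45. Ptprc, the gene of CD45, had 0, 1 and 0 reads in the IL13KO cocultures, 6, 3 and 9 in the WT cocultures and 0 in each monoculture. The summed level of 12 leukocyte markers was 26.2 to 34.1 CPM with IL13KO ILC2s, 109 to 141 CPM with WT ILC2s and 10.6 to 19.0 CPM alone. Of these 12, Cd48 and Cytip were at 0 with IL13KO ILC2s, and Ptprc, Cd48, Was, Laptm5 and Rac2 were at 0 alone. The part of leukocyte RNA in the differences described here was not tested, and in bulk RNA fewer cells of a type cannot be told apart from less RNA per cell.

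Amino acids cross the plasma membrane and the lysosomal membrane through carriers that differ in substrate, in ion coupling and in direction. Exchangers of the Slc7a family bind a glycoprotein heavy chain, Slc3a2 or Slc3a1, and swap one amino acid for another, whereas sodium-coupled carriers of the Slc1a, Slc6a and Slc38a families load the cell, and members on the lysosome release amino acids and take part in signalling to the kinase mTORC1. In many cell types several of these genes are induced when amino acids run short, through the kinase GCN2 and the transcription factor ATF4, which binds the amino acid response element. In fibroblasts they supply glycine, proline and glutamine for collagen synthesis.

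The promoter windows of 5 members are shown because they hold a match to that element (Slc1a4 and Slc7a7), give an example of a match to an E-box (Slc38a7) or belong to the genes with the largest rises with WT ILC2s (Slc38a10 and Slc7a8). They are RefSeq windows of the build GRCm38.p6 that run from 250 bases before the start of a transcript to 50 bases after it, given 5′ to 3′ on the strand of the gene, with capitals on matches to the motifs searched. The first is Slc1a4 at chr11:20332664-20332963, minus strand, the second Slc7a7 at chr14:54417895-54418194, minus strand, the third Slc38a7 at chr8:95853442-95853741, minus strand, the fourth Slc38a10 at chr11:120151302-120151601, minus strand, and the last Slc7a8 at chr14:54781837-54782136, minus strand.
Slc1a4: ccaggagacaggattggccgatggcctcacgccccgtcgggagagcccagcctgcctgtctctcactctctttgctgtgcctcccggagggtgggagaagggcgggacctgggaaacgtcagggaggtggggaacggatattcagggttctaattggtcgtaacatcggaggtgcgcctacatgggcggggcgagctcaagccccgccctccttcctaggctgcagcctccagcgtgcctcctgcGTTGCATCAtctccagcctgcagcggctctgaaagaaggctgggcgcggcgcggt
Slc7a7: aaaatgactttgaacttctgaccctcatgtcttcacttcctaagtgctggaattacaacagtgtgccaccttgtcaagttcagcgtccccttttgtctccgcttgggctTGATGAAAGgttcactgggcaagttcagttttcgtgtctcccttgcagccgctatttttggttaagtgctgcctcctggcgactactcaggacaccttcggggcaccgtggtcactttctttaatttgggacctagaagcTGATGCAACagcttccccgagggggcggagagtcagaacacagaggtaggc
Slc38a7: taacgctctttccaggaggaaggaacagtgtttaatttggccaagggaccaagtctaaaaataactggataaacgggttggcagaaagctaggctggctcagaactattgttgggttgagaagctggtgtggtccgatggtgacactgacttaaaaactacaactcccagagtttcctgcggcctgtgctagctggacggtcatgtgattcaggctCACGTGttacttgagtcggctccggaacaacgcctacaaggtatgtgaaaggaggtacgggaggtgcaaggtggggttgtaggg
Slc38a10: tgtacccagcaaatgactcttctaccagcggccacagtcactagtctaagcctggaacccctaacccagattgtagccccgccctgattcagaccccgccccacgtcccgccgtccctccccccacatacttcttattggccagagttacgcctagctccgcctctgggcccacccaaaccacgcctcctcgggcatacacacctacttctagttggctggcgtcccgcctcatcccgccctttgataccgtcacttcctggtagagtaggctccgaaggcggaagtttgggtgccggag
Slc7a8: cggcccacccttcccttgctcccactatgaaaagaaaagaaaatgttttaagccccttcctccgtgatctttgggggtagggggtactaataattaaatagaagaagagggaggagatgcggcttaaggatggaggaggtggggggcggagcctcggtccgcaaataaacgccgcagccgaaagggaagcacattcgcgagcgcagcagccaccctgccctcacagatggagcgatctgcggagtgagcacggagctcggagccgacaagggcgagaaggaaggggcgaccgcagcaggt

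The table held windows for 29 of the 44 members, 47 windows in all, and both strands were searched. TTGCATCA occurred in 3 of the 47 member windows (6.38%) and in 0.895% of all 32851 windows. The Slc7a7 windows among them overlap and hold the same site, which was thus counted more than once in the member share. The looser element TGATGNAAN, whose matches include every TTGCATCA on the other strand, occurred in the same 3 member windows (6.38%) and in 3.95% of all windows. Both were found in 2 genes, Slc1a4 and Slc7a7, of which Slc1a4 rose in both cocultures and Slc7a7 was not called in any comparison. The E-box CACGTG occurred in 10.6% of the member windows (Slc1a6, Slc1a7, Slc36a1, Slc38a7 and Slc43a1) and in 7.15% of all windows. The palindrome bound by STAT6, the factor downstream of interleukin-13 (TTC and GAA with 4 bases between), occurred in 4.26% of the member windows (Slc1a7 and Slc43a2) and in 6.95% of all windows. None of the 4 motifs lies in the windows of Slc38a10 and Slc7a8 shown above.

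Many of the transporter genes were called in coculture, at a share near that of all genes. Slc7a8, Slc38a10, Slc6a9, Slc1a4 and Slc1a5 more than doubled in both cocultures, and Slc43a3, Slc1a3 and Slc6a12 fell in both. Calls were made with edgeR's quasi-likelihood test, where the p adjusted by Benjamini-Hochberg over all genes was below 0.05. In the IL13KO coculture against monoculture, 15 of the 37 tested members were higher and 3 lower, against 30.1% higher and 27.3% lower among all genes tested (57.4% called). In the WT coculture against monoculture, 17 were higher and 8 lower, against 32.8% and 29.7% of all genes (62.5% called). Of the members 48.6% were called in the IL13KO and 67.6% in the WT comparison, shares near those of all genes.

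Members' median log2 fold change was 0.17 in the IL13KO coculture and 0.32 in the WT coculture against monoculture, while the medians over all genes were 0.00 and 0.02. The groups did not overlap for 16 members in the IL13KO and 21 members in the WT comparison, beside 59.2% and 60.9% of all genes. No member was called in opposite directions in the 2 cocultures, as 0.575% of all genes were. The comparisons share the 4 monocultures, so their calls are not independent.

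Fold changes against monoculture rose with the GC content of the gene across all genes (Spearman's rho 0.404 for the IL13KO and 0.339 for the WT coculture, 0.048 between the cocultures). The fit was therefore repeated with each library's trend over GC content and transcript length removed (the trend-corrected fit). There 9 members were higher and 9 lower with IL13KO ILC2s, and 13 higher and 13 lower with WT ILC2s, beside 23.0% higher and 27.5% lower, and 27.9% higher and 31.8% lower, among all genes tested. The median log2 fold change was 0.02 for the members and -0.06 for all genes with IL13KO ILC2s, and -0.10 and -0.06 with WT ILC2s. The split between higher and lower calls against monoculture thus depended on that setting, and trend-corrected log2 fold changes stand below beside genes whose call they ended, added or moved. The share of exon bases that overlap another gene on either strand is given where it exceeds 5%, since the strand setting of the counting is not given in the sources used here.

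**Figure D1:**
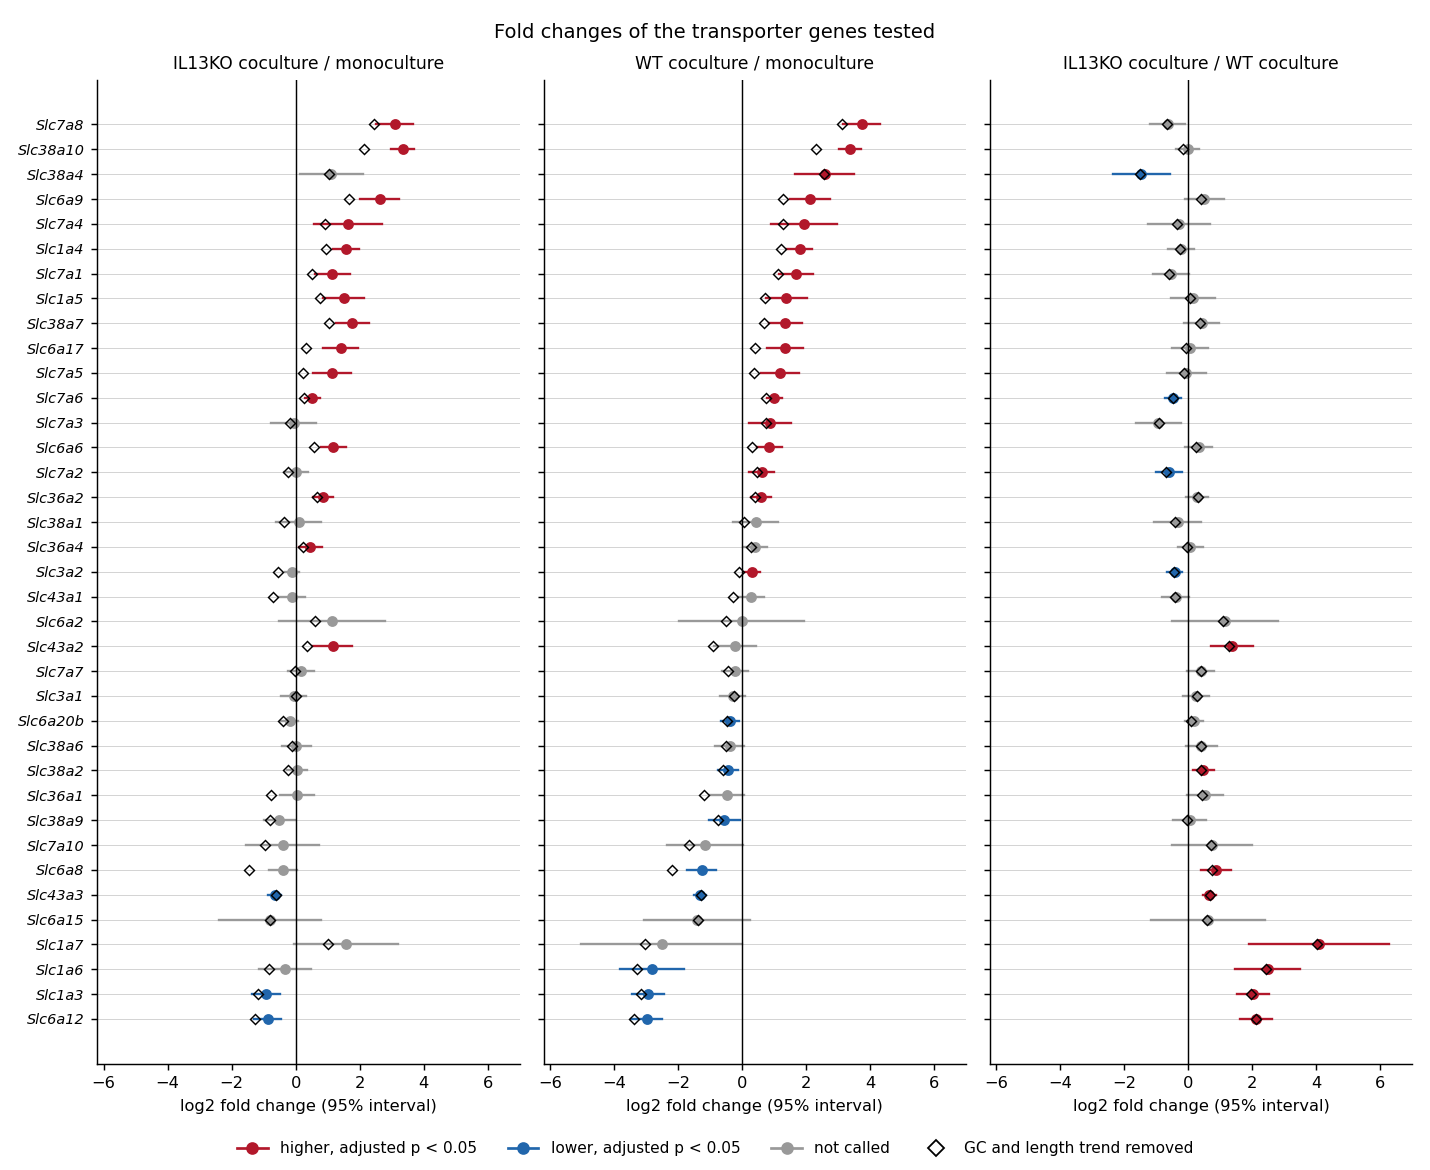
Log2 fold changes of the 37 tested transporter genes with 95% intervals, ordered by the WT coculture against monoculture; filled points are coloured by call and open diamonds give the trend-corrected value. Slc7a8 and Slc38a10 lie at the top of both left panels, and the diamonds of most risers sit left of the points there but close to them in the right panel.

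Values after ± are SDs for levels (n = 3 libraries in each coculture group, n = 4 in monoculture) and standard errors (SE) for log2 fold changes (FC). Levels were compared between genes only per kilobase of exon (RPKM, CPM divided by exon length in kilobases). A few genes made up most of the transporter RNA. In the IL13KO cocultures Slc43a3 (140 ± 10.2 RPKM), Slc1a5 (135 ± 12.4 RPKM) and Slc3a2 (93.3 ± 2.86 RPKM) were the highest. In the WT cocultures the order was Slc3a2 (126 ± 10.5 RPKM), Slc1a5 (124 ± 19.3 RPKM) and Slc43a3 (88.7 ± 4.89 RPKM), of which the first pair did not differ beyond the spread. In the monocultures Slc43a3 stood at 219.9 ± 15.9 RPKM, Slc3a2 at 101 ± 12.9 RPKM and Slc1a5 at 47.6 ± 21.2 RPKM. Slc38a10 ranked 4 in both cocultures and 13 in monoculture, and Slc7a8 ranked 8 in the IL13KO cocultures, 6 in the WT cocultures and 22 in monoculture. Summed over the members, the level was 2990 ± 146 CPM in the IL13KO cocultures, 2765 ± 267 CPM in the WT cocultures and 2402 ± 137 CPM in the monocultures. Without Slc43a3, whose human counterpart carries purine nucleobases and not amino acids, the sums were 2367 ± 104 CPM, 2369 ± 270 CPM and 1420 ± 135 CPM in the same groups.

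**Figure D2:**
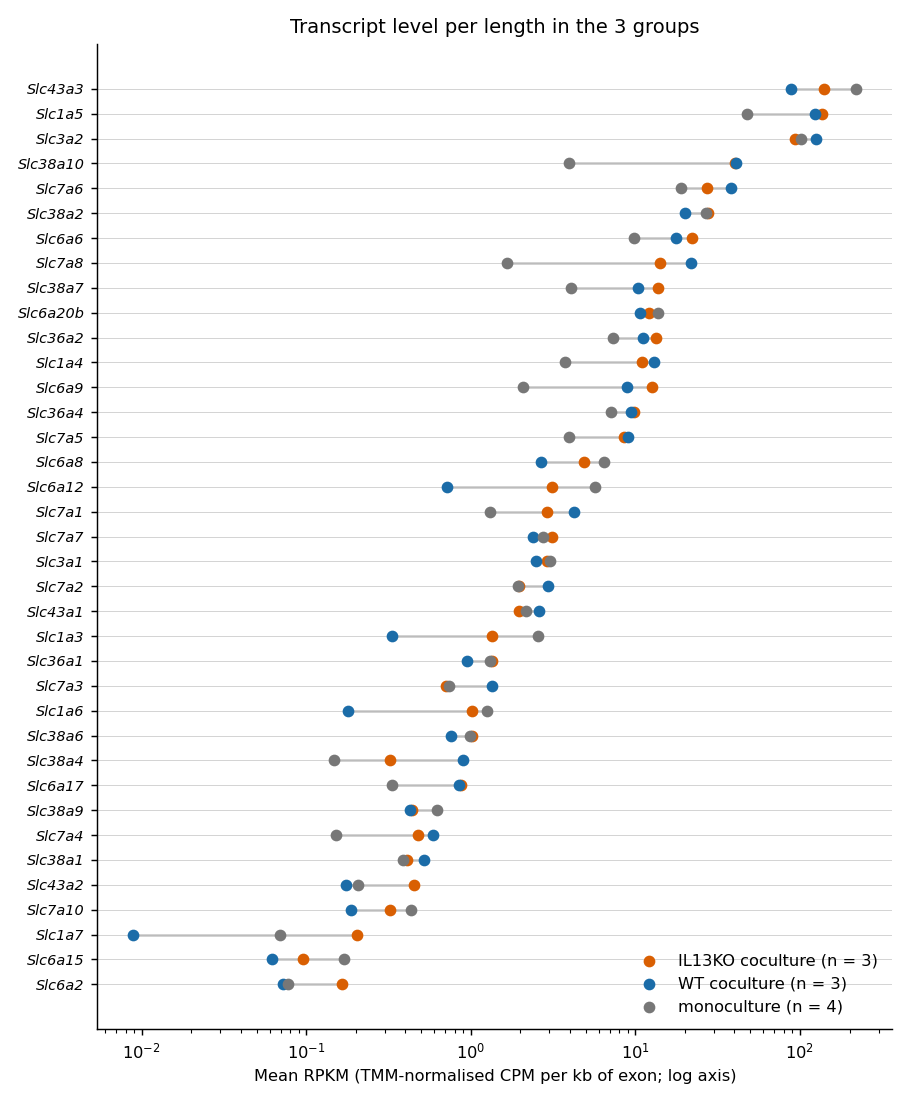
Mean RPKM (log axis) of each tested transporter gene in the IL13KO coculture (n = 3), the WT coculture (n = 3) and monoculture (n = 4), joined by a grey line. Slc43a3 is the highest gene in monoculture, and Slc38a10, Slc7a8 and Slc1a7 have some of the widest gaps between groups.

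Slc3a2 (ENSMUSG00000010095, chr19:8706882-8723369 on the minus strand) encodes the heavy chain CD98hc, which brings its light chains to the cell surface. It had 341, 323 and 324 CPM in the IL13KO cocultures, 444, 407 and 481 CPM in the WT cocultures and 293, 389.7, 349.9 and 389.6 CPM in the monocultures. The IL13KO libraries lay inside the range of the monocultures and the WT libraries above it. Slc3a2 rose in the WT coculture against monoculture (log2 FC 0.32 ± 0.11, adjusted p = 0.0181). It was not called in the IL13KO coculture against monoculture (log2 FC -0.11 ± 0.11, adjusted p = 0.389) and was lower with IL13KO than with WT ILC2s (log2 FC -0.43 ± 0.11, adjusted p = 0.0153). In the trend-corrected fit it was called lower with IL13KO ILC2s than alone (-0.55, adjusted p = 0.000228). Its rise over monoculture with WT ILC2s did not hold in the trend-corrected fit (-0.10, adjusted p = 0.357) or without WT library 4 (adjusted p = 0.0726). That rise was not called with upper-quartile size factors either (adjusted p = 0.101). The difference between the cocultures was not called without WT library 4, IL13KO library 2 or IL13KO library 3 (adjusted p = 0.0688, 0.0649 and 0.0531). It was not called with a replicate block either. The other heavy chain, Slc3a1 (ENSMUSG00000024131, chr17:85028376-85064236 on the plus strand), which pairs with a cystine carrier in the kidney, had 6.46, 6.65 and 6.75 CPM in the IL13KO cocultures, 6.01, 5.02 and 5.82 CPM in the WT cocultures and 8.28, 5.63, 7.01 and 6.68 CPM in the monocultures. It was not called in any comparison, and 26.5% of its exon bases overlap Prepl.

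Among the light chains, Slc7a8 (ENSMUSG00000022180, chr14:54722209-54781946 on the minus strand) had the largest rise of all members in the WT coculture. It encodes LAT2, an exchanger of neutral amino acids. Slc7a8 had 63.3, 74.8 and 72.7 CPM in the IL13KO cocultures, 142, 105 and 82.1 CPM in the WT cocultures and 7.01, 4.52, 12.5 and 9.14 CPM in the monocultures, and both cocultures lay above every monoculture. The rise was 8.52-fold in the IL13KO coculture (log2 FC 3.09 ± 0.26, adjusted p = 1.7e-06) and 13.3-fold in the WT coculture (log2 FC 3.73 ± 0.26, adjusted p = 1.63e-07). The cocultures did not overlap each other, but their difference was not called (log2 FC -0.64 ± 0.25, adjusted p = 0.0845, 95% interval -1.19 to -0.10). It was called without monoculture library 2 or 3 (adjusted p = 0.0394 and 0.0371). The trend-corrected difference was called too (-0.68, adjusted p = 0.0316). The trend-corrected rises over monoculture were 2.45 with IL13KO and 3.13 with WT ILC2s on the log2 scale.

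Slc7a6 (ENSMUSG00000031904, chr8:106168857-106198706 on the plus strand) encodes y+LAT2, which exchanges arginine for neutral amino acids. Per length it was the most abundant of the light chains in the set in every library. Its values were 125, 126 and 122 CPM in the IL13KO cocultures, 191, 178 and 154 CPM in the WT cocultures and 80.7, 97.0, 75.5 and 94.3 CPM in the monocultures, with no overlap between any of the groups. Slc7a6 rose in the IL13KO coculture (log2 FC 0.52 ± 0.11, adjusted p = 0.00126) and in the WT coculture (log2 FC 1.0 ± 0.11, adjusted p = 4.9e-06), and it was lower with IL13KO than with WT ILC2s (log2 FC -0.49 ± 0.12, adjusted p = 0.00858). Slc7a5, the gene of LAT1, which imports leucine and other large neutral amino acids, averaged 31.8 ± 11.6 CPM with IL13KO ILC2s, 33.2 ± 7.71 CPM with WT ILC2s and 14.6 ± 4.21 CPM alone. It rose with IL13KO ILC2s (log2 FC 1.13 ± 0.27, adjusted p = 0.00324) and with WT ILC2s (log2 FC 1.19 ± 0.27, adjusted p = 0.00188), but neither rise was called in the trend-corrected fit (0.24, adjusted p = 0.404, and 0.39, adjusted p = 0.158). Slc7a7, the gene of y+LAT1, averaged 10.3 ± 1.63 CPM with IL13KO ILC2s, 7.88 ± 0.537 CPM with WT ILC2s and 9.14 ± 1.87 CPM alone and was not called, and 7.0% of its exon bases overlap Oxa1l. Slc7a10, the gene of Asc-1, averaged 0.681 ± 0.204 CPM with IL13KO ILC2s, 0.393 ± 0.336 CPM with WT ILC2s and 0.912 ± 0.258 CPM alone (17.9% overlap with Lrp3) and was not called either, but in the trend-corrected fit it was called lower with WT ILC2s than alone (-1.67, adjusted p = 0.017).

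The light chains in the set were higher relative to the heavy chain in coculture. The Slc7a gene left out of the set is not in the sums below. The summed RPKM of Slc7a5, Slc7a6, Slc7a7, Slc7a8 and Slc7a10 was 53.3 ± 3.96 in the IL13KO cocultures, 71.6 ± 11.3 in the WT cocultures and 27.8 ± 2.27 in the monocultures. Divided by the RPKM of Slc3a2, this gave 0.504 to 0.607 with IL13KO ILC2s, 0.451 to 0.667 with WT ILC2s and 0.260 to 0.300 alone. Slc7a8 made up 26.0% to 26.9% of that summed RPKM with IL13KO ILC2s, 26.7% to 33.8% with WT ILC2s and 2.98% to 9.19% alone. The ranges of the cocultures and the monocultures did not overlap in either measure. These ratios were formed after the levels were known and are given with no test.

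**Figure D3:**
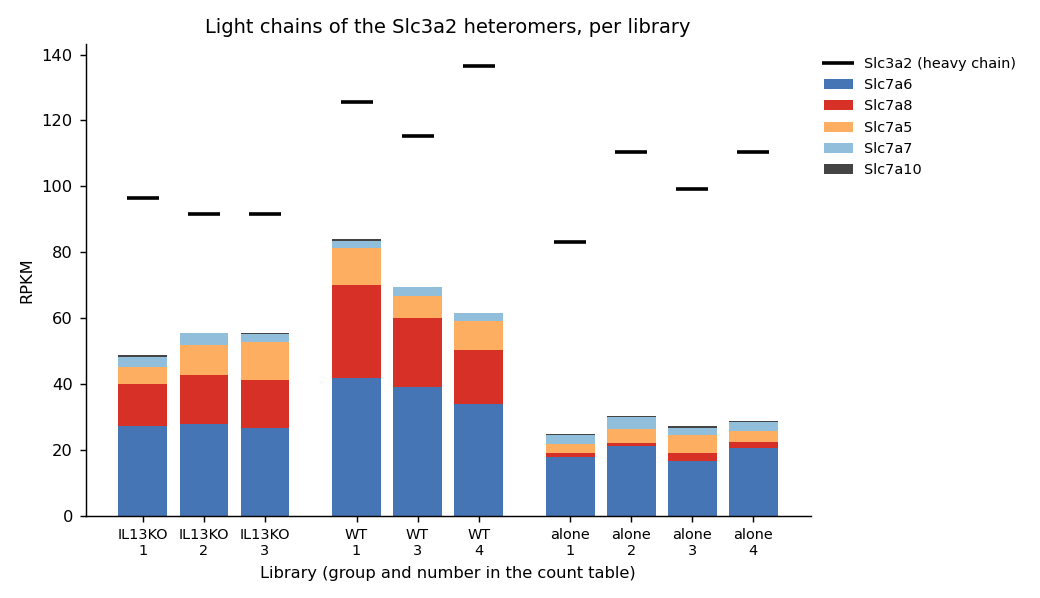
RPKM of the 5 tested light chains in the set stacked in each library, with the RPKM of the heavy chain Slc3a2 as a black line. The red segment, Slc7a8, is visible in every coculture library and thin in the 4 libraries of fibroblasts alone, and the stack reaches less of the way to the black line there.

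The cationic amino acid carriers of the Slc7a family, which import arginine, lysine and ornithine, rose in part. All 4 members were called higher in the WT coculture and 2 of them in the IL13KO coculture, beside 32.8% and 30.1% of all genes. Slc7a4 among them reached the filter's level only in the cocultures, where it was higher, so the count shows no pattern of the family. Slc7a1 (ENSMUSG00000041313, chr5:148327410-148399904 on the minus strand), the broadly expressed CAT1, had 29.3, 37.1 and 34.1 CPM in the IL13KO cocultures, 69.3, 47.1 and 29.3 CPM in the WT cocultures and 12.8, 12.2, 20.0 and 15.7 CPM in the monocultures. Both cocultures lay above the monocultures, and the WT libraries spread widely enough to overlap the IL13KO libraries. Slc7a1 rose with IL13KO ILC2s (log2 FC 1.15 ± 0.25, adjusted p = 0.00174) and with WT ILC2s (log2 FC 1.68 ± 0.25, adjusted p = 7.27e-05), and the difference between them was not called (log2 FC -0.54 ± 0.26, adjusted p = 0.16). That difference was called without WT library 4 (-0.80, adjusted p = 0.03), and the rise with IL13KO ILC2s was not called in the trend-corrected fit (0.51, adjusted p = 0.0552).

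Slc7a2 (ENSMUSG00000031596, chr8:40862396-40922308 on the plus strand), the inducible carrier CAT2, had 17.7, 20.5 and 15.2 CPM in the IL13KO cocultures, 30.5, 26.9 and 23.4 CPM in the WT cocultures and 18.2, 15.4, 14.2 and 22.6 CPM in the monocultures. Only the WT libraries lay above the monocultures. Slc7a2 rose in the WT coculture against monoculture (log2 FC 0.61 ± 0.17, adjusted p = 0.00825), was not called in the IL13KO coculture against monoculture (log2 FC 0.02 ± 0.18, adjusted p = 0.95) and was lower with IL13KO than with WT ILC2s (log2 FC -0.60 ± 0.19, adjusted p = 0.0352). The last call was lost without IL13KO library 1 or 3 or WT library 1 or 3 (adjusted p from 0.0848 to 0.133), and with a replicate block. Of the exon bases of Slc7a2, 6.95% overlap Gm26584. Slc7a3, the gene of CAT3, averaged 2.67 ± 1.05 CPM with IL13KO ILC2s, 5.12 ± 1.10 CPM with WT ILC2s and 2.79 ± 0.860 CPM alone. It was higher in the WT coculture than in monoculture (log2 FC 0.88 ± 0.31, adjusted p = 0.0238), a call lost without WT library 1 or 4 or monoculture library 1 or 2 (adjusted p 0.0956, 0.0638, 0.0543 and 0.0526). A replicate block lost that call too (adjusted p = 0.0978). Between the cocultures it was not called (log2 FC -0.94 ± 0.33, adjusted p = 0.0543, 95% interval -1.65 to -0.23), with a call that depended on the setting: among others, DESeq2 (adjusted p = 0.0372), limma-voom (adjusted p = 0.0284) and the trend-corrected fit (adjusted p = 0.0459) called it lower with IL13KO than with WT ILC2s, and 13 of 21 alternatives did not. Slc7a4, a relative with no settled substrate, averaged 1.99 ± 0.40 CPM with IL13KO ILC2s, 2.43 ± 0.429 CPM with WT ILC2s and 0.626 ± 0.458 CPM alone. It was called higher in both cocultures (log2 FC 1.64 ± 0.49, adjusted p = 0.0118 with IL13KO and log2 FC 1.94 ± 0.48, adjusted p = 0.0034 with WT ILC2s). Of its exon bases 13.3% overlap P2rx6, and in the trend-corrected fit the rise with IL13KO ILC2s was not called (0.93, adjusted p = 0.139) and that with WT ILC2s was 1.27.

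Both neutral exchangers of the Slc1a family rose about 3-fold with either kind of ILC2. Slc1a5 (ENSMUSG00000001918, chr7:16781340-16798274 on the plus strand) encodes ASCT2, which imports glutamine, and was among the 3 highest members per length in every group. It had 617, 564 and 513 CPM in the IL13KO cocultures, 608, 480.1 and 459 CPM in the WT cocultures and 78.0, 209, 291 and 215 CPM in the monocultures, and every coculture library lay above every monoculture library. Slc1a5 rose 2.85-fold with IL13KO ILC2s (log2 FC 1.51 ± 0.30, adjusted p = 0.000832) and 2.6-fold with WT ILC2s (log2 FC 1.38 ± 0.30, adjusted p = 0.00129). The difference between the cocultures was not called (log2 FC 0.13 ± 0.32, adjusted p = 0.809), with a 95% interval of -0.56 to 0.82 on the log2 scale. Slc1a4 (ENSMUSG00000020142, chr11:20302180-20332713 on the minus strand), which encodes the alanine, serine and cysteine carrier ASCT1, had 43.5, 42.6 and 43.9 CPM in the IL13KO cocultures, 63.5, 43.9 and 45.3 CPM in the WT cocultures and 11.5, 13.2, 20.1 and 13.6 CPM in the monocultures. It rose with IL13KO ILC2s (log2 FC 1.57 ± 0.18, adjusted p = 1.64e-05) and with WT ILC2s (log2 FC 1.81 ± 0.18, adjusted p = 2.94e-06) without a called difference between them (log2 FC -0.23 ± 0.19, adjusted p = 0.413). Trend-corrected, both genes stayed called with smaller rises, 0.77 and 0.73 for Slc1a5 and 0.95 and 1.21 for Slc1a4 (IL13KO, then WT, against monoculture).

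**Figure D4:**
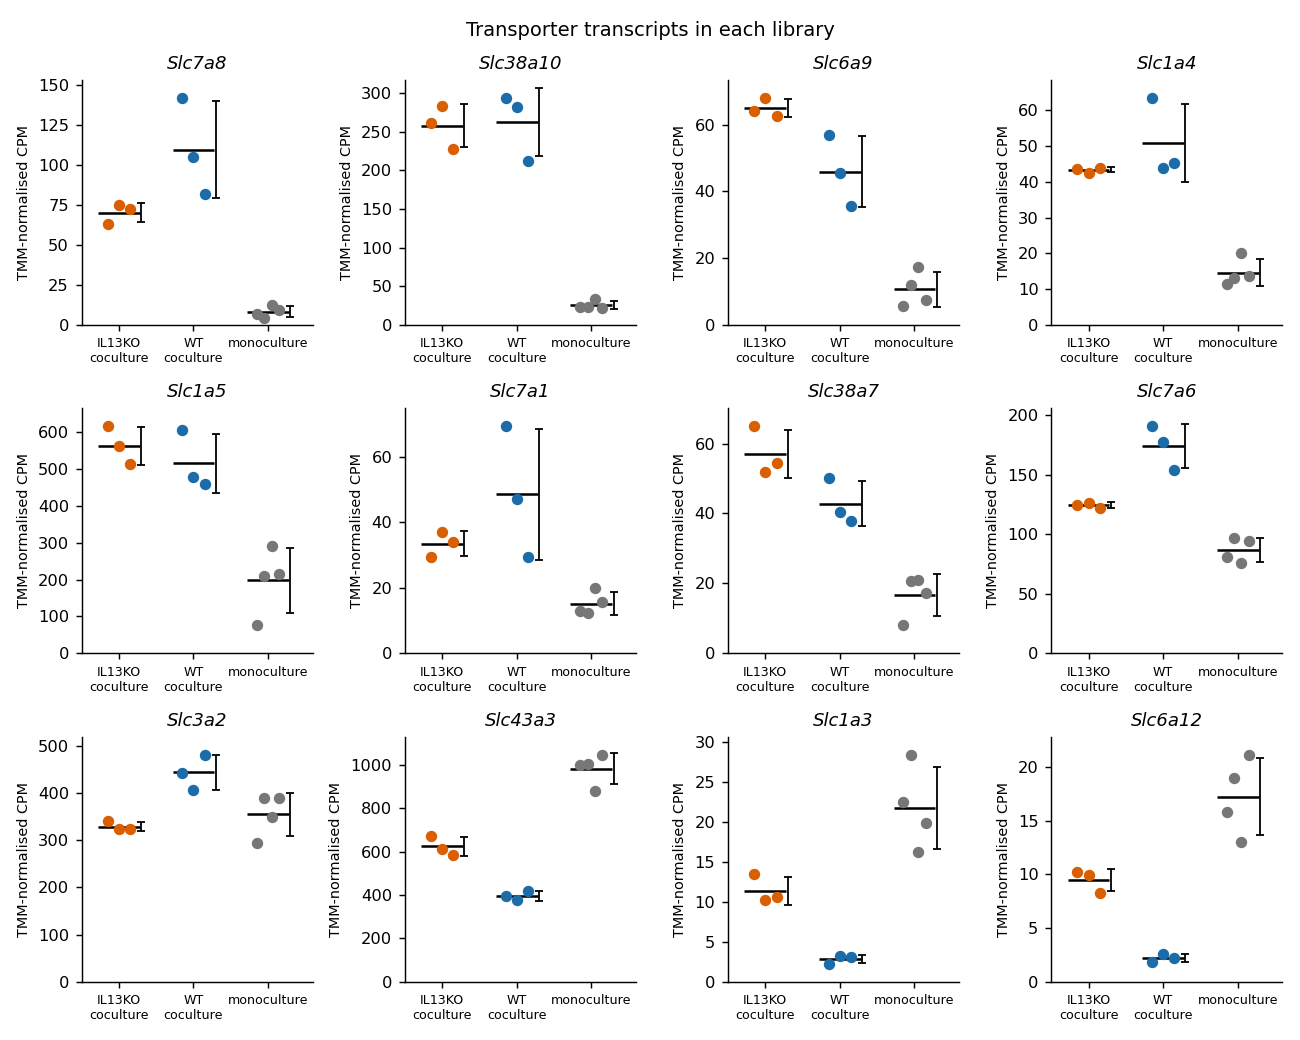
TMM-normalised CPM of 12 transporter genes in each library, by group; black lines are group means and bars at their right ±1 SD. In the first 8 panels, from Slc7a8 to Slc7a6, both cocultures lie above the monocultures, and in the last 3, Slc43a3, Slc1a3 and Slc6a12, the IL13KO libraries lie between the WT libraries and the monocultures.

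Of the glutamate carriers of the same family, Slc1a3, Slc1a6 and Slc1a7 were tested, of which Slc1a6 and Slc1a7 had few reads. Both of these passed the filter through the groups in which they were higher, so no count over the carriers is given. Slc1a3 (ENSMUSG00000005360, chr15:8634124-8710764 on the minus strand), the gene of GLAST, which takes up glutamate and aspartate, had 13.4, 10.2 and 10.6 CPM in the IL13KO cocultures, 2.24, 3.18 and 3.07 CPM in the WT cocultures and 22.5, 28.4, 16.2 and 19.9 CPM in the monocultures. The groups did not overlap, with the WT libraries lowest, the IL13KO libraries between and the monocultures highest. Slc1a3 fell with IL13KO ILC2s (log2 FC -0.93 ± 0.20, adjusted p = 0.00181) and further with WT ILC2s (log2 FC -2.95 ± 0.23, adjusted p = 3.86e-07), and was 4.04-fold as high with IL13KO as with WT ILC2s (log2 FC 2.02 ± 0.24, adjusted p = 6.5e-05). Slc1a6, which encodes EAAT4, a carrier known from cerebellar neurons, averaged 2.17 ± 1.07 CPM with IL13KO ILC2s, 0.385 ± 0.157 CPM with WT ILC2s and 2.72 ± 0.849 CPM alone. It fell with WT ILC2s (log2 FC -2.81 ± 0.46, adjusted p = 0.00015), was not called with IL13KO ILC2s (log2 FC -0.33 ± 0.38, adjusted p = 0.474) and was higher with IL13KO than with WT ILC2s (log2 FC 2.48 ± 0.47, adjusted p = 0.00223). Slc1a7, the gene of EAAT5, known from the retina, had 36 reads in the IL13KO cocultures, 2 in the WT cocultures and 11 in the monocultures, and was not called against monoculture (adjusted p = 0.0882 with IL13KO and 0.0772 with WT ILC2s). The ratio of IL13KO to WT was 20.6, and its exact 95% interval, for counting error, ran between 5.29 and 176 (adjusted p = 0.0108), and the call was lost without WT library 3 or 4 (adjusted p = 0.0596 and 0.058). In the trend-corrected fit it was called lower with WT ILC2s than alone (adjusted p = 0.0289).

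Levels of cell type markers differed between the groups. Of the 10 fibroblast markers, 5 were higher and 3 lower with IL13KO ILC2s and 6 higher and 3 lower with WT ILC2s against monoculture. Of the 12 leukocyte markers 4 were tested, and 1 was higher and 0 lower with IL13KO ILC2s and 2 higher and 0 lower with WT ILC2s against monoculture. The summed level of all 8 mural and stellate cell markers, none of them at 0 in a group, was 106 to 142 CPM with IL13KO ILC2s, 34.5 to 35.5 CPM with WT ILC2s and 89.3 to 101 CPM alone. Of the 7 tested, 2 were higher and 0 lower with IL13KO ILC2s and 0 higher and 5 lower with WT ILC2s against monoculture. The sum of the 6 macrophage markers in the table, of 9 listed, was 42.6 to 48.8 CPM, 22.3 to 24.1 CPM and 68.1 to 74.8 CPM in the IL13KO cocultures, the WT cocultures and the monocultures, with Adgre1 at 0 in the monocultures. Of the 3 macrophage markers tested, 0 were higher and 1 lower with IL13KO ILC2s, and 1 higher and 1 lower with WT ILC2s. The 12 ILC2 markers in the table, of 14 listed, summed to 338 to 359 CPM, 1471 to 1694 CPM and 607 to 655 CPM in the same groups. Of them Il13 and Il7r were at 0 with IL13KO ILC2s, and Klrg1, Il13, Il5 and Il7r were at 0 alone. The sum did not follow the single markers. Of the 8 ILC2 markers tested, 5 were higher and 1 lower with IL13KO ILC2s than alone. With WT ILC2s 6 were higher and 2 lower than alone. The 4 Schwann and neural markers in the table, of 8 listed and none at 0, summed to 275 to 286 CPM, 511 to 544 CPM and 86.2 to 134 CPM. In each coculture against monoculture 2 of these 4 were higher and 0 lower. The 7 epithelial markers in the table, of 10 listed, summed to 13.9 to 16.1 CPM, 7.58 to 10.8 CPM and 16.8 to 24.0 CPM, with Cpa1 and Cdh1 at 0 with IL13KO ILC2s, Krt8 with WT ILC2s, and Cdh1 and Krt8 alone. Of the 4 epithelial markers tested, 1 was higher and 1 lower with IL13KO ILC2s than alone. With WT ILC2s 2 were higher and 1 lower than alone. The 6 mesothelial markers summed to 107 to 229 CPM, 130 to 151 CPM and 26.2 to 152 CPM, with Msln at 0 with WT ILC2s, and Lrrn4 and Msln alone. Of the 5 mesothelial markers tested, 2 were higher and 0 lower with IL13KO ILC2s and 1 higher and 1 lower with WT ILC2s than alone. The part of these cell types in the levels of the transporter genes was not tested.

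The Slc38a family of sodium-coupled neutral carriers split by member. Slc38a10 (ENSMUSG00000061306, chr11:120103960-120151346 on the minus strand), a glutamine, glutamate and aspartate carrier, rose about 10-fold in both cocultures. It had 261, 284 and 228 CPM in the IL13KO cocultures, 294, 282 and 212 CPM in the WT cocultures and 23.3, 22.8, 33.5 and 22.1 CPM in the monocultures, so every coculture library lay far above every monoculture. The rise was 10.2-fold with IL13KO ILC2s (log2 FC 3.35 ± 0.16, adjusted p = 6.33e-08) and 10.4-fold with WT ILC2s (log2 FC 3.37 ± 0.16, adjusted p = 8.84e-09). The cocultures differed by a log2 value of -0.03, with a 95% interval of -0.38 to 0.32 (adjusted p = 0.925). The trend-corrected rises were 2.14 and 2.32 (IL13KO, then WT, against monoculture), and 5.72% of its exon bases overlap the predicted gene Gm11769.

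Slc38a7 (ENSMUSG00000036534, chr8:95835920-95853539 on the minus strand), which in human cells exports glutamine from lysosomes, had 64.9, 51.9 and 54.5 CPM in the IL13KO cocultures, 50.0, 40.3 and 38 CPM in the WT cocultures and 8.19, 20.7, 20.8 and 17.2 CPM in the monocultures, again with every coculture above every monoculture. It rose with IL13KO ILC2s (log2 FC 1.77 ± 0.24, adjusted p = 5.19e-05) and with WT ILC2s (log2 FC 1.35 ± 0.24, adjusted p = 0.000299). The cocultures did not overlap but were not called apart (log2 FC 0.42 ± 0.25, adjusted p = 0.257), and the trend-corrected rises were 1.05 with IL13KO and 0.68 with WT ILC2s. Slc38a2 (ENSMUSG00000022462, chr15:96687392-96699730 on the minus strand), the gene of SNAT2, a stress-regulated carrier of small neutral amino acids, had 255, 253 and 224 CPM in the IL13KO cocultures, 213, 145 and 172 CPM in the WT cocultures and 282, 192, 238 and 238 CPM in the monocultures. It was lower in the WT coculture than in monoculture (log2 FC -0.43 ± 0.14, adjusted p = 0.0199) and higher with IL13KO than with WT ILC2s (log2 FC 0.47 ± 0.15, adjusted p = 0.0422), with overlap of WT library 1 and the monocultures. The first call was lost without WT library 3 or 4 (adjusted p = 0.107 and 0.0667). The second was lost without WT library 3 or 4, any IL13KO library or monoculture library 4 (adjusted p from 0.0563 to 0.208), and stood at 0.05 with DESeq2's size factors.

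Slc38a4, an imprinted gene for SNAT4, averaged 1.38 ± 0.740 CPM with IL13KO ILC2s, 3.84 ± 0.459 CPM with WT ILC2s and 0.632 ± 0.303 CPM alone. It rose with WT ILC2s (log2 FC 2.58 ± 0.42, adjusted p = 0.000165) and was not called with IL13KO ILC2s (log2 FC 1.11 ± 0.46, adjusted p = 0.0515). It was lower with IL13KO than with WT ILC2s (log2 FC -1.47 ± 0.41, adjusted p = 0.0207), a call lost without IL13KO library 1 or 3 or WT library 3 or 4 (adjusted p from 0.063 to 0.0828). A replicate block lost that call too. Slc38a9, the lysosomal arginine sensor upstream of mTORC1, averaged 7.34 ± 0.230 CPM with IL13KO ILC2s, 7.12 ± 1.86 CPM with WT ILC2s and 10.4 ± 2.31 CPM alone. It was not called with IL13KO ILC2s (log2 FC -0.51 ± 0.22, adjusted p = 0.0672), though lower in the trend-corrected fit (-0.80, adjusted p = 0.00919). Its fall with WT ILC2s (log2 FC -0.55 ± 0.22, adjusted p = 0.0455) was lost on leaving out any of 8 libraries, namely IL13KO library 1, 2 or 3, WT library 3 or 4 or monoculture library 1, 2 or 4 (adjusted p up to 0.191, without WT library 3). That fall was also lost with no filter, with only the groups compared, with a replicate block and after thinning to equal depth. Slc38a1, the gene of SNAT1, averaged 7.07 ± 1.35 CPM with IL13KO ILC2s, 8.91 ± 0.280 CPM with WT ILC2s and 6.65 ± 2.99 CPM alone. Slc38a6 averaged 7.87 ± 0.704 CPM with IL13KO ILC2s, 5.94 ± 0.493 CPM with WT ILC2s and 7.71 ± 2.04 CPM alone. Neither gene was called, but in the trend-corrected fit Slc38a6 was called lower with WT ILC2s than alone (-0.49, adjusted p = 0.0468).

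Of the proton-coupled Slc36a family, 1 gene rose in both cocultures. Slc36a2, which encodes the glycine and proline carrier PAT2, averaged 43.5 ± 5.66 CPM with IL13KO ILC2s, 36.1 ± 5.50 CPM with WT ILC2s and 23.8 ± 3.17 CPM alone (IL13KO log2 FC 0.87 ± 0.15, adjusted p = 0.000263; WT log2 FC 0.60 ± 0.15, adjusted p = 0.00304). Slc36a1, the gene of the lysosomal carrier PAT1, is its neighbour 19.3 kb away on chromosome 11. It averaged 7.60 ± 1.0 CPM with IL13KO ILC2s, 5.32 ± 0.943 CPM with WT ILC2s and 7.36 ± 2.33 CPM alone. It was not called in either coculture (IL13KO log2 FC 0.05 ± 0.24, adjusted p = 0.882; WT log2 FC -0.47 ± 0.25, adjusted p = 0.118), but in the trend-corrected fit it was called lower in both (-0.76, adjusted p = 0.00985, and -1.18, adjusted p = 0.000387). Slc36a4, the gene of PAT4, averaged 64.2 ± 1.2 CPM with IL13KO ILC2s, 61.8 ± 4.23 CPM with WT ILC2s and 46.6 ± 13.2 CPM alone. It was called higher with IL13KO ILC2s (log2 FC 0.46 ± 0.17, adjusted p = 0.0336) and not called with WT ILC2s (log2 FC 0.41 ± 0.17, adjusted p = 0.0519). That call was lost in 10 of 21 alternatives, among them without any IL13KO library, WT library 3 or monoculture library 1 or 3, and in the trend-corrected fit (0.24, adjusted p = 0.237).

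Slc43a3 (ENSMUSG00000027074, chr2:84936579-84958509 on the plus strand) was the most abundant member per length in the monocultures and in the IL13KO cocultures. It had 674, 613 and 584 CPM in the IL13KO cocultures, 394, 375 and 419 CPM in the WT cocultures and 997, 1003, 880.1 and 1046 CPM in the monocultures, with no overlap between any of the groups. Slc43a3 fell to 0.635 of monoculture with IL13KO ILC2s (log2 FC -0.65 ± 0.09, adjusted p = 5.82e-05) and to 0.404 with WT ILC2s (log2 FC -1.31 ± 0.09, adjusted p = 1.53e-07), and was higher with IL13KO than with WT ILC2s (log2 FC 0.66 ± 0.10, adjusted p = 0.000345). Slc43a1, the gene of the leucine carrier LAT3, lies 73.0 kb from it on chromosome 2 and was not called, with 11.3 ± 0.795 CPM with IL13KO ILC2s, 14.8 ± 0.745 CPM with WT ILC2s and 12.3 ± 3.06 CPM alone, but in the trend-corrected fit it was called lower with IL13KO ILC2s than alone (-0.70, adjusted p = 0.00471). Slc43a2, the gene of LAT4, averaged 4.56 ± 0.717 CPM with IL13KO ILC2s, 1.75 ± 0.352 CPM with WT ILC2s and 2.06 ± 0.750 CPM alone. It was higher with IL13KO ILC2s than in monoculture (log2 FC 1.16 ± 0.29, adjusted p = 0.0038) and than with WT ILC2s (log2 FC 1.37 ± 0.30, adjusted p = 0.00569), while the WT coculture was not called against monoculture (log2 FC -0.21 ± 0.30, adjusted p = 0.557) but was called lower in the trend-corrected fit (-0.91, adjusted p = 0.011). The rise with IL13KO ILC2s over monoculture was not called in the trend-corrected fit (0.35, adjusted p = 0.275), and 9.18% of its exon bases overlap Gm45606.

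The Slc6a family holds sodium- and chloride-coupled carriers of amino acids, osmolytes and transmitters. Slc6a9 (ENSMUSG00000028542, chr4:117834506-117875198 on the plus strand), the glycine carrier GlyT1, had 64.2, 68.0 and 62.5 CPM in the IL13KO cocultures, 56.7, 45.5 and 35.5 CPM in the WT cocultures and 5.57, 12.0, 17.3 and 7.52 CPM in the monocultures. Every coculture library exceeded every monoculture library. Slc6a9 rose 6.15-fold with IL13KO ILC2s (log2 FC 2.62 ± 0.28, adjusted p = 1.02e-05) and 4.36-fold with WT ILC2s (log2 FC 2.12 ± 0.28, adjusted p = 3.1e-05), and the difference between the cocultures was not called (log2 FC 0.50 ± 0.29, adjusted p = 0.235). Of its exon bases 30.2% overlap B4galt2, Ccdc24 and Gm17114, and the trend-corrected rises were 1.68 with IL13KO and 1.27 with WT ILC2s. Slc6a6, the taurine carrier, averaged 187 ± 12.7 CPM with IL13KO ILC2s, 149.5 ± 20.6 CPM with WT ILC2s and 82.5 ± 22 CPM alone. It rose in both cocultures (IL13KO log2 FC 1.18 ± 0.18, adjusted p = 0.000135; WT log2 FC 0.86 ± 0.18, adjusted p = 0.00114). Slc6a17, a neutral amino acid carrier of synaptic vesicles in the brain, averaged 9.02 ± 0.373 CPM with IL13KO ILC2s, 8.69 ± 2.95 CPM with WT ILC2s and 3.41 ± 0.959 CPM alone. It too rose in both (IL13KO log2 FC 1.4 ± 0.26, adjusted p = 0.000521; WT log2 FC 1.35 ± 0.26, adjusted p = 0.000533). Trend-corrected, neither rise of Slc6a17 was called (IL13KO 0.33, adjusted p = 0.187; WT 0.41, adjusted p = 0.087). That of Slc6a6 held at 0.56 with IL13KO ILC2s and was not called with WT ILC2s (0.31, adjusted p = 0.0765).

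A carrier of osmolytes fell in both cocultures, and the creatine carrier fell with WT ILC2s. Slc6a12 (ENSMUSG00000030109, chr6:121343076-121365775 on the plus strand), which encodes the betaine and GABA carrier BGT1 induced by hypertonic stress, had 10.2, 9.95 and 8.28 CPM in the IL13KO cocultures, 1.79, 2.56 and 2.21 CPM in the WT cocultures and 15.8, 19.0, 13.0 and 21.2 CPM in the monocultures. As for Slc1a3, the groups did not overlap and the IL13KO libraries lay in the middle. Slc6a12 fell with IL13KO ILC2s (log2 FC -0.87 ± 0.19, adjusted p = 0.00207) and further with WT ILC2s (log2 FC -2.98 ± 0.22, adjusted p = 2.45e-07), and was 4.33-fold as high with IL13KO as with WT ILC2s (log2 FC 2.11 ± 0.23, adjusted p = 3.29e-05). Slc6a8 (ENSMUSG00000019558, chrX:73673150-73682502 on the plus strand), the creatine carrier, had 28.3, 21.6 and 25.9 CPM in the IL13KO cocultures, 16.2, 10.4 and 15.2 CPM in the WT cocultures and 36.5, 29.2, 43 and 25.1 CPM in the monocultures. It fell with WT ILC2s (log2 FC -1.25 ± 0.21, adjusted p = 0.000176), was not called with IL13KO ILC2s (log2 FC -0.40 ± 0.20, adjusted p = 0.103) and was higher with IL13KO than with WT ILC2s (log2 FC 0.85 ± 0.22, adjusted p = 0.0126). The last call was lost without IL13KO library 1 or WT library 3 (adjusted p = 0.059 and 0.0678). In the trend-corrected fit the gene was lower in both cocultures (-1.47, adjusted p = 8.18e-05, with IL13KO and -2.20, adjusted p = 1.66e-06, with WT ILC2s).

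Slc6a20b averaged 103 ± 1.75 CPM with IL13KO ILC2s, 90.5 ± 6.32 CPM with WT ILC2s and 117 ± 20.0 CPM alone. It was lower in the WT coculture than in monoculture (log2 FC -0.37 ± 0.13, adjusted p = 0.0204). That call was lost without WT library 1 or 4 or monoculture library 2 (adjusted p = 0.0856, 0.0638 and 0.0509), and with a replicate block (adjusted p = 0.0718). With IL13KO ILC2s it was called lower in the trend-corrected fit (-0.39, adjusted p = 0.0203). Of its exon bases 21.1% overlap Sacm1l. Its close paralog Slc6a20a has no row in the count table, and reads that both genes share could be assigned to either, so the level of Slc6a20b is uncertain. Slc6a15, a neutral amino acid carrier of neurons, averaged 0.738 ± 0.205 CPM with IL13KO ILC2s, 0.479 ± 0.104 CPM with WT ILC2s and 1.32 ± 1.11 CPM alone and was not called. Slc6a2, the noradrenaline carrier, averaged 1.04 ± 0.404 CPM with IL13KO ILC2s, 0.455 ± 0.404 CPM with WT ILC2s and 0.488 ± 0.458 CPM alone and was not called either.

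The comparison of the cocultures asks which of these changes differed when the ILC2s lacked interleukin-13. The cocultures also differed in the summed leukocyte markers, at 26.2 to 34.1 CPM with IL13KO and 109 to 141 CPM with WT ILC2s. Of the 12 leukocyte markers 4 were tested, and 0 were higher and 2 lower with IL13KO than with WT ILC2s. The part of the leukocyte difference in the calls below was not tested. Between IL13KO and WT cocultures 8 members were higher and 4 lower, against 11.7% higher and 11.6% lower among all genes (23.3% called), so that 32.4% of the members were called. The cocultures did not overlap for 24 members, beside 49% of all genes. The 12 genes that rose with both kinds of ILC2 and were not called apart were Slc7a5, Slc7a8, Slc7a1, Slc7a4, Slc1a4, Slc1a5, Slc38a10, Slc38a7, Slc36a2, Slc6a17, Slc6a6 and Slc6a9. Slc7a4 among them reached the filter's level only in the cocultures. In the trend-corrected fit neither rise of Slc7a5 and Slc6a17 was called. The rises of Slc7a1 and Slc7a4 with IL13KO ILC2s and of Slc6a6 with WT ILC2s were not called there either. That the difference of the 12 genes between the cocultures was not called does not show that they were equal. The fitted difference ran from -0.64 for Slc7a8 to 0.50 for Slc6a9 on the log2 scale. The 4 genes lower with IL13KO ILC2s were Slc3a2, Slc7a6, Slc7a2 and Slc38a4, which had all risen with WT ILC2s. Of the 8 higher with IL13KO ILC2s, 6 had fallen with WT ILC2s (Slc1a3, Slc1a6, Slc43a3, Slc6a12, Slc38a2 and Slc6a8), and Slc43a2 and Slc1a7 had not been called there. Slc1a6 and Slc1a7 passed the filter through the groups in which they were higher, so their place in the 8 shows no pattern. Slc38a4 likewise reached the filter's level only in the cocultures, so its place among the 4 shows none either. No share of all genes is given for these patterns or for that of the 12 genes, so none of them is read as a result about the members. The WT mean of Slc1a7, 0.0299 CPM, lay below the floor. The comparisons share the WT libraries, so that these counts are a description. In a test against a fold change of 1.5 rather than 0, 5 of the 8 higher genes, Slc1a6 and Slc1a7 among them, and 0 of the 4 lower genes were called. Of all genes, that test called 3.49% higher and 3.29% lower.

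The 7 genes outside the filter were Slc7a13, Slc1a1, Slc1a2, Slc38a3, Slc6a13, Slc6a4 and Slc6a7, with at most 16 reads in any library. Slc6a4, the serotonin carrier, had 4 reads in all, within 1 library, and Slc38a3 had 5 reads in all. Slc6a7, a proline carrier of neurons, had 16, 3 and 13 reads in the IL13KO cocultures, 3, 2 and 2 in the WT cocultures and 3, 1, 1 and 1 in the monocultures. In a fit with no filter it was the 1 gene of the 7 that was called, higher with IL13KO ILC2s than alone (log2 FC 2.28, adjusted p = 0.0291 by edgeR's quasi-likelihood test), and the difference between the cocultures had an adjusted p of 0.0686. Slc6a13, the neighbour of Slc6a12 at a distance of 5.3 kb, had 12 reads with IL13KO ILC2s, 13 with WT ILC2s and 2 alone. It was not called in that fit (adjusted p = 0.118 with IL13KO and 0.115 with WT ILC2s against monoculture). Of the tested genes, 7 reached the filter's level in fewer than 3 of the groups (Slc7a10, Slc7a4, Slc1a6, Slc1a7, Slc38a4, Slc6a15 and Slc6a2), and 6 stayed under 3 CPM in every group mean.

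Genes that sense, use or charge amino acids were counted in lists of related pathways, to be read against the shares of all genes called, 30.1% higher and 27.3% lower in the IL13KO coculture and 32.8% and 29.7% in the WT coculture against monoculture, and 11.7% and 11.6% between the cocultures. Trend-corrected counts are to be read against the shares in that fit, 23% and 27.5%, 27.9% and 31.8%, and 12.6% and 12.6% in the same order. Among the 19 cytosolic aminoacyl-tRNA synthetases tested, which charge tRNAs with amino acids, 9 were higher and 4 lower in the IL13KO coculture against monoculture. In the WT coculture against monoculture 15 were higher and 0 lower. Between the cocultures 0 were higher and 10 lower with IL13KO ILC2s. Their median log2 fold changes were 0.11, 0.64 and -0.34 in these 3 comparisons, against 0.00, 0.02 and 0.00 for all genes. Vars, for valine, averaged 91.5 ± 8.61 CPM in the IL13KO cocultures, 105 ± 36.9 CPM in the WT cocultures and 7.73 ± 2.10 CPM in the monocultures (log2 fold change IL13KO 3.57 ± 0.25, adjusted p = 4.77e-07; WT 3.77 ± 0.25, adjusted p = 9.04e-08; trend-corrected 2.12 and 2.49). Tars, for threonine, averaged 270.0 ± 11.4 CPM in the IL13KO cocultures and 534 ± 30.4 CPM in the WT cocultures (-0.98 ± 0.10, adjusted p = 3.13e-05). The trend-corrected counts were 6 higher and 5 lower, 14 higher and 2 lower, and 0 higher and 12 lower in the same order.

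Of 16 amino acid carriers of other families, 11 were higher and 2 lower in the IL13KO coculture and 9 higher and 1 lower in the WT coculture against monoculture (trend-corrected 6 and 3 with IL13KO, and 8 and 4 with WT ILC2s). Among them was the lysosomal histidine and peptide carrier Slc15a4 (IL13KO 1.89 ± 0.18, adjusted p = 4.42e-06; WT 1.93 ± 0.18, adjusted p = 1.72e-06; trend-corrected 1.24 and 1.32). In the arm of GCN2 and ATF4, 9 of 16 genes were higher and 3 lower in each coculture against monoculture (trend-corrected 4 and 3 with IL13KO, and 7 and 3 with WT ILC2s). Stc2, a secreted glycoprotein gene of that arm, averaged 12.3 ± 2.02 CPM in the IL13KO cocultures, 38.8 ± 2.50 CPM in the WT cocultures (-1.66 ± 0.16, adjusted p = 1.7e-05) and 6.29 ± 0.832 CPM in the monocultures. Cebpg, a partner of ATF4, fell in both (IL13KO -2.0 ± 0.18, adjusted p = 3.11e-06; WT -1.91 ± 0.18, adjusted p = 1.94e-06). Of 31 genes of amino acid sensing by mTORC1, 9 were higher and 13 lower in the IL13KO coculture and 11 higher and 14 lower in the WT coculture. Sesn2, the leucine sensor, rose in both (IL13KO 2.87 ± 0.26, adjusted p = 3.11e-06; WT 2.81 ± 0.26, adjusted p = 1.61e-06; trend-corrected 1.75 and 1.82), while Sesn1 fell with WT ILC2s (-1.24 ± 0.12, adjusted p = 1.82e-06). In the trend-corrected fit the mTORC1 list had 4 higher and 15 lower in the IL13KO and 4 higher and 18 lower with WT ILC2s.

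Enzymes that use amino acids were also mixed. Of 15 genes of glutamine and glutamate use, 7 were higher and 2 lower in the IL13KO coculture and 6 higher and 2 lower in the WT coculture (trend-corrected 3 and 3, and 6 and 3). Aldh18a1, the first enzyme of proline synthesis from glutamate, rose in both (IL13KO 2.0 ± 0.20, adjusted p = 5.38e-06; WT 2.35 ± 0.20, adjusted p = 7.34e-07; trend-corrected 1.38 and 1.77). Of 11 genes of branched-chain amino acid use, 2 were higher and 4 lower in the IL13KO and 2 higher and 5 lower with WT ILC2s (trend-corrected 2 and 6, and 3 and 7). The cytosolic transaminase Bcat1 averaged 189.6 ± 26.0 CPM in the IL13KO cocultures, 357 ± 35.3 CPM in the WT cocultures (-0.91 ± 0.13, adjusted p = 0.000262) and 95.1 ± 11 CPM in the monocultures. Of 11 genes of arginine and polyamine use, 2 were higher and 4 lower in the IL13KO and 2 higher and 6 lower with WT ILC2s (trend-corrected 1 and 4, and 3 and 5). The spermidine synthase gene Srm was lower with IL13KO (237 ± 17.7 CPM) than with WT ILC2s (459 ± 23.1 CPM; -0.95 ± 0.12, adjusted p = 0.000124). Of 5 tested partners and trafficking factors of the carriers, 1 was higher and 1 lower in the IL13KO and 0 higher and 3 lower in the WT coculture (trend-corrected 0 and 2, and 0 and 4).

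**Figure D5:**
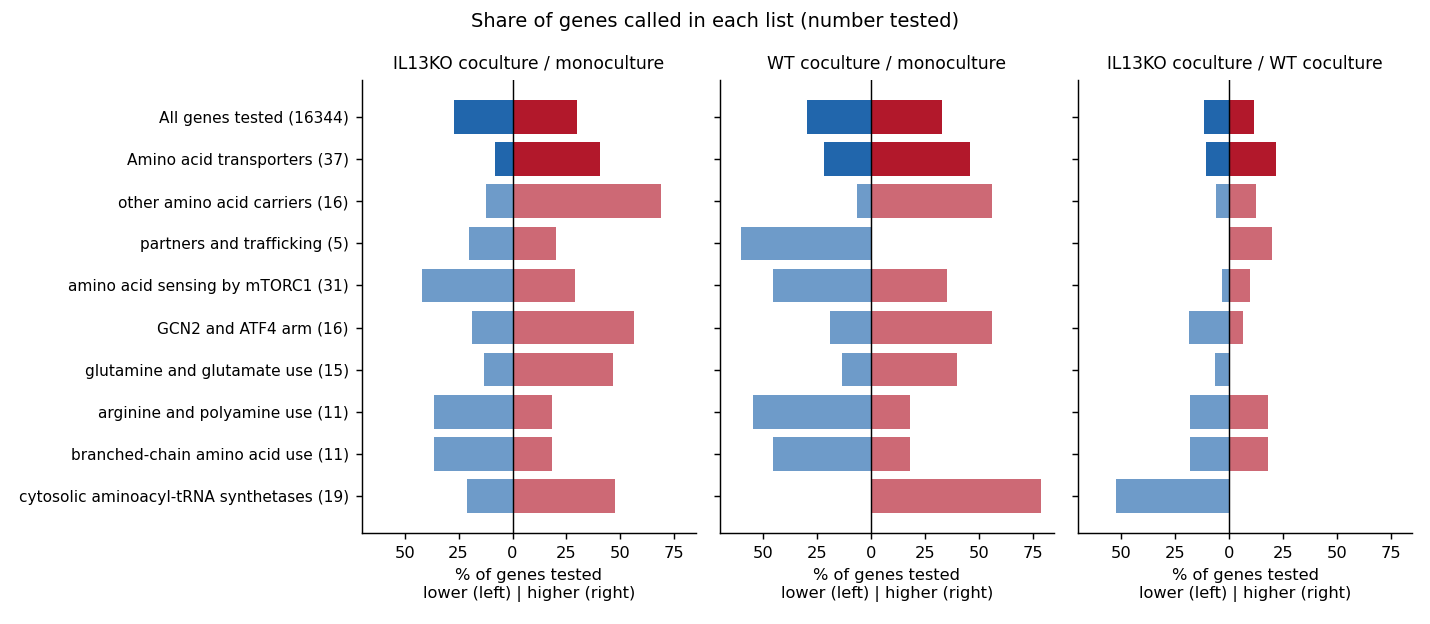
Share of tested genes called higher (right, red) and lower (left, blue) among all genes, the transporter genes and 8 related lists, with the number tested in brackets; list members were counted at an adjusted p below 0.05 over all genes. The synthetase row leans right against monoculture, most in the WT panel (15 of 19), and left in the comparison of the cocultures (10 of 19).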

How the data were processed

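RNA of sorted fibroblasts was measured by low-input RNA sequencing in 10 libraries, read in pairs of 50 nt per the labels. The deposited count table gives whole-number counts for 22731 genes, and the deposited normalised table was not used here. Per the submitters' processing notes, the tools were STAR 2.7.7a, Salmon 1.6.0, Trimmomatic 0.39, FastQC 0.11.9, DESeq2 and Picard, on the build GRCm38.p6; which tool made the counts, the annotation and the strand setting are not given in the sources used here. GENCODE M21, on the same build, placed 22647 of the identifiers and gave symbols, positions, exon length and GC content; RefSeq gave promoter windows. Columns were matched to groups by the names of the count table.

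Genes were filtered by filterByExpr, normalised by TMM and fitted in edgeR 4.0.16 (R 4.3.3; limma 3.58.1) with 1 coefficient per group over all 10 libraries, and p-values were adjusted by Benjamini-Hochberg over 16344 genes within each comparison. CPM are TMM-normalised, and RPKM divide them by exon length. Fold changes use edgeR's default prior count. Intervals and floors cover counting error or, for fold changes, the fitted spread, at 95%. Alternatives were RLE or upper-quartile normalisation, limma-voom, DESeq2 1.42.0, other filters, thinning to equal depth, removal of the GC and length trend (loess, span 0.4), a fold test, a replicate block and leaving out each library. The fit was tested on simulated data.

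Members and gene lists were chosen with earlier results of these data known. Values of every library were given for the heavy chains, for up to 6 called rises and 6 falls per comparison with a mean of at least 10 CPM and no overlap, and for the 5 highest members per length, and of each list up to 3 genes with the smallest adjusted p could be named. No library was left out.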

Additional observations from a re-analysis of the deposited data

Results flagged for a closer look

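For Slc38a10, 1 monoculture library stood apart from the other 3. Monoculture library 3 had 33.5 CPM, and the others had 23.3, 22.8 and 22.1 CPM. Groups of 4 libraries were examined for 37 genes, of which this was the only one, and chance sets about 1 in 20 groups apart in this way. Every coculture library, from 228 to 284 CPM with IL13KO ILC2s and from 212 to 294 CPM with WT ILC2s, lay far above monoculture library 3.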

How the results depend on the processing

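Of the members called, 12 of 18 in the IL13KO coculture against monoculture, 17 of 25 in the WT coculture against monoculture and 6 of 12 between the cocultures stayed called in every one of the 21 alternatives other than the test against a fold of 1.5. That test called 13 members higher and 0 lower in the IL13KO coculture against monoculture, 12 higher and 5 lower in the WT coculture against monoculture, and 5 higher and 0 lower between the cocultures. Of all genes, it called 18.9% higher and 6.99% lower, 22% higher and 14% lower, and 3.49% higher and 3.29% lower in the same order. With the GC and length trend removed the counts were 9 higher and 9 lower, 13 higher and 13 lower, and 8 higher and 6 lower in the same order. Of all genes, 23% were higher and 27.5% lower, 27.9% and 31.8%, and 12.6% and 12.6% in that fit. The sign of a called or newly called gene turned there for Slc36a1 with IL13KO ILC2s (-0.76) and Slc3a2 with WT ILC2s (-0.10). Upper-quartile size factors, which moved the median of all genes by about 0.1 on the log2 scale, gave 5 lower in the IL13KO coculture against monoculture, beside 32.2% of all genes. A fit of only the groups compared gave 7 lower in the IL13KO than in the WT coculture, beside 18.1% of all genes. When each library was left out in turn, the members higher and lower were 14 to 16 and 3 to 5 in the IL13KO coculture against monoculture, 15 to 18 and 5 to 9 in the WT coculture against monoculture, and 5 to 10 and 1 to 6 between the cocultures. Of all genes, 26% to 31.4% were higher and 20.9% to 28.5% lower, 29.2% to 33.9% and 24.8% to 30.4%, and 7.37% to 15% and 6.53% to 14.7% in the same order. The lowest member counts between the cocultures came without WT library 3 (5 higher, 2 lower) and IL13KO library 3 (1 lower). The lowest count of member falls with WT ILC2s came without WT library 4 (5), and the highest with IL13KO ILC2s without monoculture library 3 (5). Same-numbered libraries did not deviate together (correlations -0.126 to 0.028 over 8 pairs, 0 of them over 0.1), so the numbers were not taken to pair libraries. With a replicate block the member counts were 15 higher and 3 lower, 16 higher and 7 lower, and 7 higher and 1 lower in the same order. Of all genes, 27.9% were higher and 22.8% lower, 30.9% and 26.7%, and 6.96% and 6.03% with that block. In the other alternatives the counts stayed within 1.5 times the main ones. Low reads limit 7 untested members and those under 3 CPM, and 3 or 4 libraries a group limit every call. The causes of these changes were not tested.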
